A study of Sus scrofa with 16 samples.

Results

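The 63 genes described here encode nuclear subunits, and a few assembly factors, of the mitochondrial oxidative phosphorylation (OXPHOS) machinery. They were measured in 2 tissues of Iberian pigs, a breed that deposits much fat: the liver and the subcutaneous backfat. A gene was included when a probe set of the porcine Affymetrix array carried exactly 1 gene symbol and that symbol began with NDUF, UQCR, COX4, COX5, COX6, COX7, COX8 or ATP5, or was SDHA, SDHB, SDHC, SDHD or CYC1. These symbols were carried by 80 probe sets. For each gene the probe set with the highest mean over the 16 arrays stood for it. The 63 genes were taken from 6765 genes named by 10069 such probe sets. They comprise 32 subunits of complex I and 3 of its assembly factors (NDUFAF1, NDUFAF2 and NDUFAF3), 4 subunits of complex II, 2 of complex III, 8 of complex IV and 14 of complex V. The set was chosen by gene name alone, not by any measured value.

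Each array held RNA from 1 tissue of 1 pig at 211 days of age. The 8 groups of 2 arrays were males and females on the high feeding level or on a 20% restriction (the low level), each in liver and in backfat. All pigs received the same pelleted diet before the restriction. Values are log2 expression levels, so a difference of 1 is a doubling of signal on the linear scale. Because the tissues are mixtures of cells, a lower level can mean fewer cells of a type or less RNA per cell, which cannot be told apart. The study stated 8 animals but the labels carry 10 animal numbers. Males 14, 15, 16 and 17 gave both tissues, while the female numbers 20 and 21 stand at opposite feeding levels in liver and backfat. The p-values set a difference against the spread between these arrays. The main fit between tissues treated the 16 arrays as independent, although these males gave both tissues.

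The respiratory chain passes electrons from NADH (through complex I) and succinate (through complex II) to coenzyme Q, then through complex III and cytochrome c to complex IV, which reduces oxygen. Complexes I, III and IV pump protons across the inner mitochondrial membrane, and complex V, the ATP synthase, uses the returning protons to make ATP. Liver uses this machinery to supply gluconeogenesis, urea synthesis and fatty acid oxidation, whereas white fat is regarded as a tissue of low respiratory demand. Most subunits are encoded in the nucleus. The mitochondrially encoded ones were not analysed here.

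The tissue labels were checked first. All 15 hepatocyte markers measured were above a log2 level of 4, taken here as the floor of detection, on every liver array, and their mean level was 14.02 to 14.24 there against 3.35 to 6.83 in backfat. ALB, which encodes serum albumin, ranged from 3.62 to 10.09 among the backfat arrays. Of 10 adipocyte markers, 9 were above 4 on every backfat array, with a mean level over the list of 10.45 to 11.15 there and 3.91 to 4.56 in liver. ADIPOQ, the adipokine adiponectin, did not exceed 2.28 in liver. RETN was at the floor in both tissues. Of 15 skeletal muscle markers, 2 (TPM2 and CA3, both also found outside muscle) were above 4 in either tissue. The median level of an array lay between 3.93 and 4.12. As controls for RNA integrity, the array compares 3' with 5' probe sets of the same transcript. For EF1A their difference was 0.85 to 1.35 in liver and 0.37 to 0.67 in backfat, without overlap. For actin (3.26 to 4.13 against 2.19 to 3.41) and GAPDH (1.77 to 2.85 against 1.45 to 2.36) the tissues overlapped. The part of these controls in the tissue differences was not tested. The backfat array of female 21 stood apart in its bacterial hybridisation controls, whose mean was 8.40 against 9.36 to 9.88 on the other 15 arrays.

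All but 1 of the OXPHOS genes were above 4 on every array. The exception was COX8H, the heart and muscle isoform of the complex IV subunit COX8, which lay between 1.73 and 2.04 on the 16 arrays and was left out of the tests. The other 62 genes were tested. None of them passed the filter through 1 tissue only, since all were above 4 in both.

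Liver and backfat differed in 40 of the 62 OXPHOS genes, with 27 lower and 13 higher in liver than in backfat. This was 64.5% of the genes tested, while over all 13962 probe sets tested 75.7% were called. The median size of the differences was 0.39 against 0.76 over all probe sets. These sets are unlike, since each OXPHOS gene was represented by its brightest probe set and was above 4 on every array. All probe sets include dimmer ones, several per gene, and ones above 4 in 1 tissue only. The same limit applies to the other shares over all probe sets given for the tissue comparison. The median signed difference, liver minus backfat, was -0.17 for the OXPHOS genes and -0.15 for all probe sets. In the lower direction 43.6% of all probe sets were called, and in the higher direction 32.2%. Only NDUFA7 and NDUFS7 differed by more than a factor of 2 among the 40. Calls were made with limma at a Benjamini-Hochberg adjusted p below 0.05 over all probe sets tested, and 42 of the 62 genes had an unadjusted p below 0.05, beside 77.3% of all probe sets. Shifting each array to a common median left 42 genes called but moved the split to 18 higher and 24 lower in liver.

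**Figure D1:**
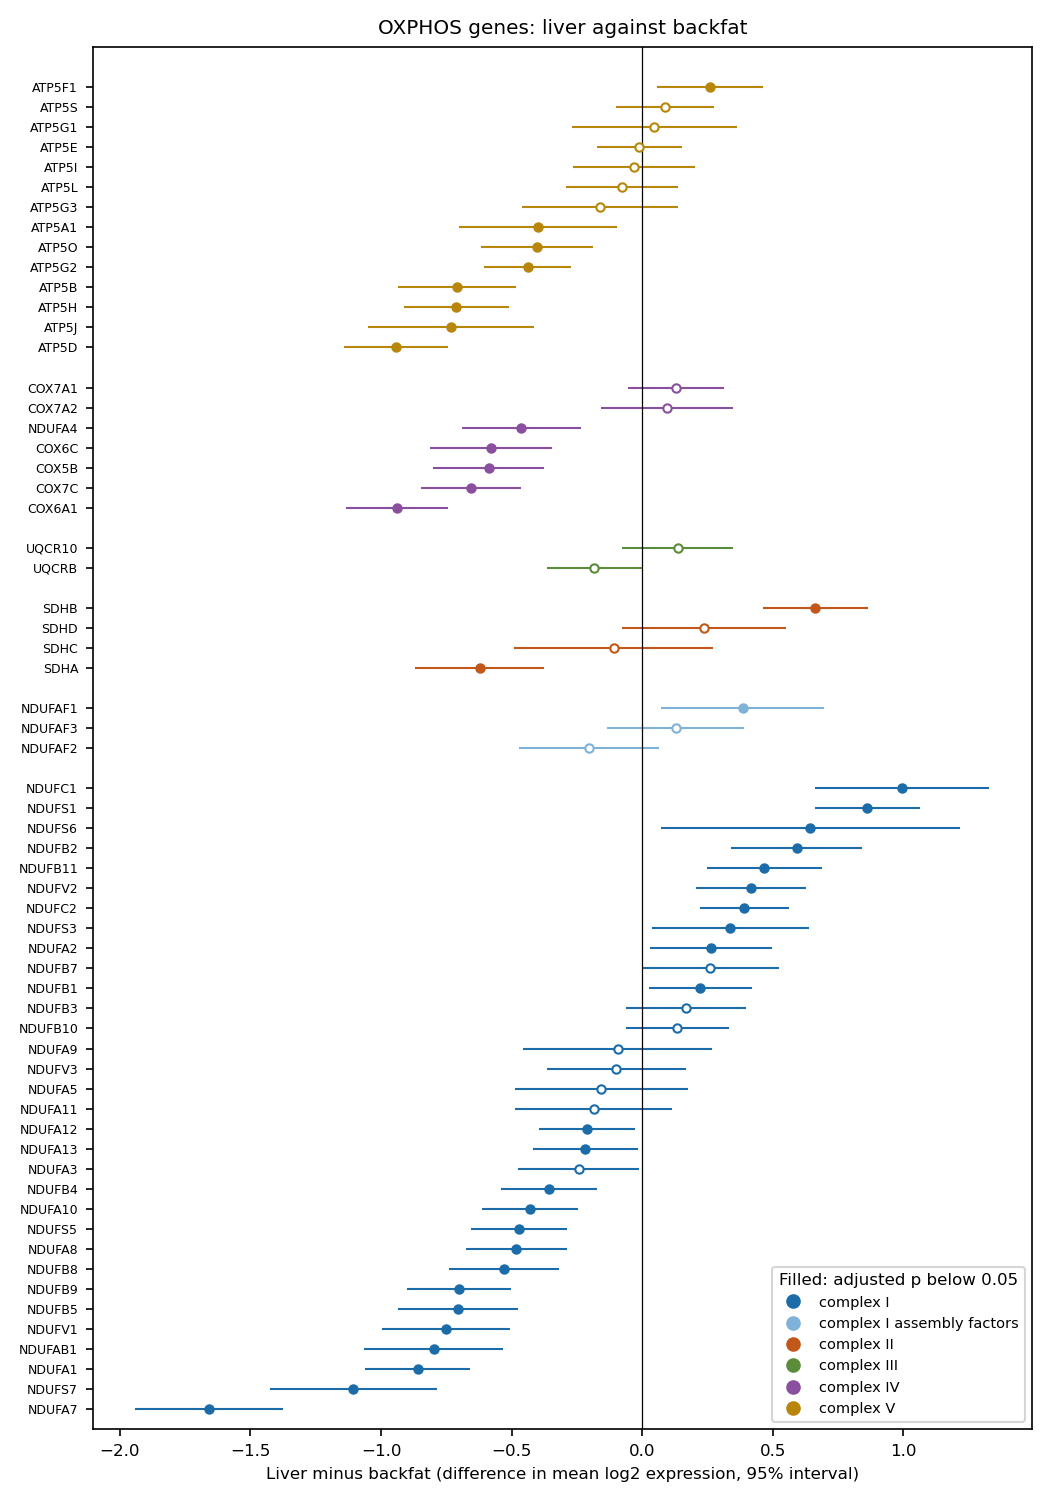
Liver minus backfat difference in mean log2 expression (horizontal axis) for the 62 OXPHOS genes tested (rows, grouped by complex), with 95% intervals from limma over 16 arrays; filled points passed an adjusted p below 0.05. The 5 called complex IV genes lie left of 0, and complex I runs from -1.66 for NDUFA7 to 0.996 for NDUFC1.

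Of the 32 subunits of complex I, 14 (43.8%) were lower and 10 (31.2%) higher in liver, and 8 did not pass. These shares were close to those over all probe sets, of which 43.6% were lower and 32.2% higher. The core subunits include those that carry the flavin and iron-sulfur clusters that hand electrons from NADH to coenzyme Q. All 5 core subunits measured passed, beside 75.7% of all probe sets. Of these subunits 3 were higher in liver (NDUFS1, NDUFS3 and NDUFV2) and 2 lower (NDUFS7 and NDUFV1). The accessory subunits, which surround and stabilise the core, gave 7 higher and 12 lower of 27.

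NDUFA7, an accessory subunit of the matrix arm, showed the largest difference of the 62 genes. Its lowest, median and highest levels were 6.64, 7.22 and 7.52 over the 8 liver arrays and 8.48, 8.73 and 9.36 over the 8 backfat arrays. Every backfat array was above every liver array. The mean was 7.17 ± 0.26 (SD, n = 8) in liver and 8.83 ± 0.33 (SD, n = 8) in backfat, a difference of -1.66 (95% interval -1.94 to -1.37) or 3.15-fold (limma adjusted p = 2.67e-07).

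NDUFS7, the core subunit that carries the last iron-sulfur cluster before coenzyme Q, ranged from 7.03 to 7.98 in liver (median 7.53) and from 8.02 to 9.30 in backfat (median 8.67). The tissues did not overlap, although the highest liver array, female 21, and the lowest backfat array, male 14, lay close together. The difference was -1.11 ± 0.14 (SE), or 2.15-fold lower in liver (limma adjusted p = 2.57e-05). NDUFV1, the flavoprotein that takes up NADH, was lower in liver by a smaller margin, with a difference of -0.75 ± 0.11 (SE), and its ranges overlapped slightly (8.55 to 8.91 in liver, 8.91 to 9.98 in backfat).

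In the opposite direction, NDUFS1, the largest iron-sulfur subunit of the core, had lowest, median and highest levels of 8.71, 9.09 and 9.18 in liver and 7.98, 8.25 and 8.33 in backfat. No backfat array reached the lowest liver array, female 18. The difference was 0.86 (95% interval 0.66 to 1.06), or 1.82-fold (limma adjusted p = 4.38e-06). NDUFV2, the partner of NDUFV1 in the NADH-oxidising tip, was higher in liver by 0.42 ± 0.10 (SE), so NDUFV1 and NDUFV2 differed between tissues in opposite directions. NDUFS3, a core subunit at the junction of the arms, was higher by 0.34 on the probe set used here, but it lost the call in 13 of 26 alternative settings, and the mean over its 3 probe sets gave -0.65 with an adjusted p of 9.80e-04, because 1 of the others differed by -2.66.

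NDUFC1, a small accessory subunit of the membrane arm, had the largest difference towards liver. Its levels were 9.46, 9.92 and 10.15 (lowest, median and highest) in liver and 8.30, 8.79 and 9.41 in backfat, with no overlap. NDUFC1 thus differed by 1.0 (95% interval 0.66 to 1.33), or 1.99-fold (limma adjusted p = 8.85e-05). NDUFC2, its neighbour in the membrane arm, was higher in liver by 0.39 ± 0.08 (SE), and the membrane-arm subunits NDUFB2 and NDUFB11 by 0.59 ± 0.11 and 0.47 ± 0.10. NDUFS6, a zinc-binding subunit of the NADH-oxidising module, had a difference of 0.64 with a wide interval (0.07 to 1.22), and the backfat array of female 21 lay at 7.23 against 4.43 to 5.66 on the other 7. Its adjusted p of 0.0414 rose above 0.05 in 13 of the 26 alternative settings tried. Smaller differences towards liver were called for NDUFA2 (0.26), NDUFB1 (0.22) and the assembly factor NDUFAF1 (0.38). NDUFA2 lost the call in 11, NDUFB1 in 14 and NDUFAF1 in 7 of those settings.

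The remaining complex I genes called lower in liver were accessory subunits. NDUFA1, needed for assembly of the membrane arm, lay between 9.47 and 10.10 in liver and between 10.41 and 10.86 in backfat, without overlap, and differed by -0.86 ± 0.09 (SE). Another, dimmer NDUFA1 probe set gave 0.28 and did not pass. NDUFAB1, the mitochondrial acyl carrier protein that also serves fatty acid and lipoate synthesis, differed by -0.80 ± 0.12 (SE), again without overlap. NDUFB5 and NDUFB9 differed by -0.71 and -0.70. NDUFB8, NDUFA8, NDUFS5, NDUFA10 and NDUFB4 had smaller differences, from -0.53 to -0.36, and NDUFA13 and NDUFA12 differed by -0.22 and -0.21. NDUFA13 lost its call in 16 and NDUFA12 in 13 of the 26 alternative settings.

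**Figure D2:**
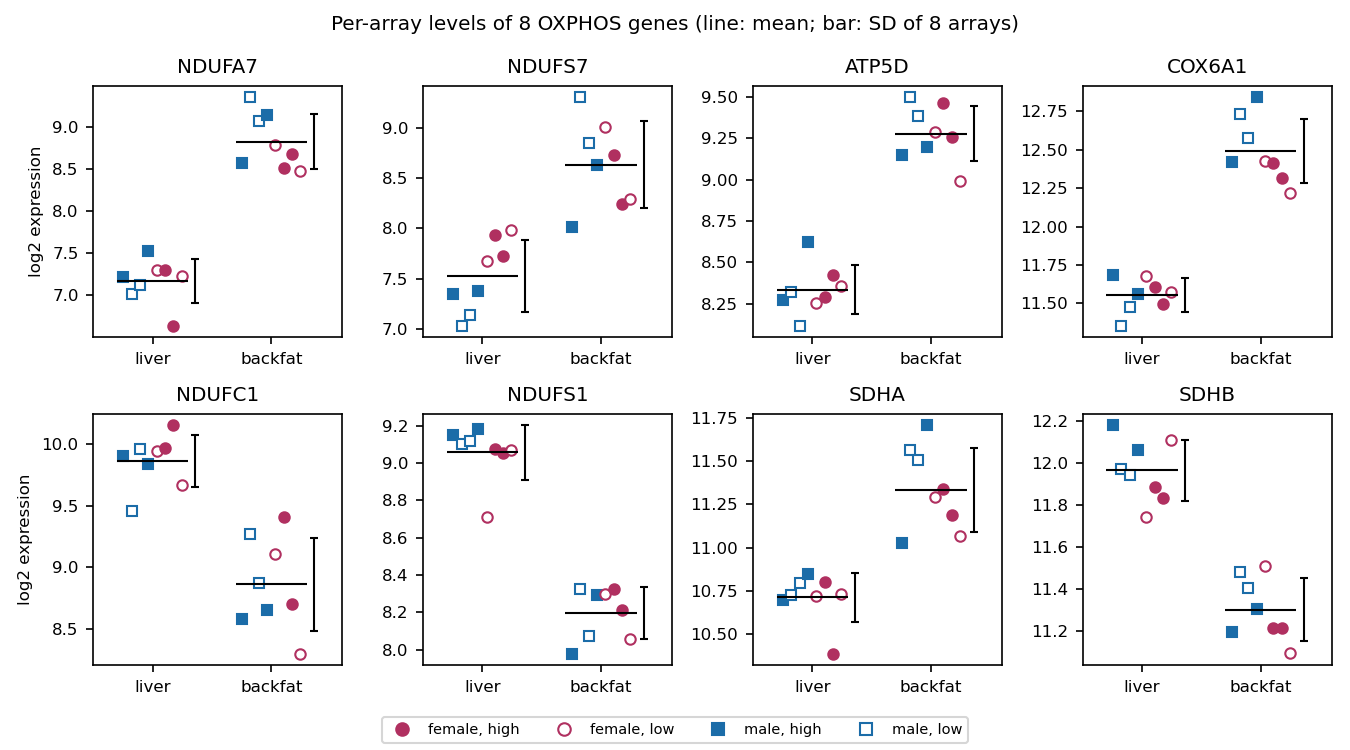
Log2 expression (vertical axis) of 8 OXPHOS genes on each of the 8 liver and 8 backfat arrays; circles are females, squares males, filled symbols the high and open symbols the low feeding level, with the mean (line) and SD (bar). NDUFA7, NDUFS7, ATP5D, COX6A1 and SDHA lie higher in backfat, and NDUFC1, NDUFS1 and SDHB lie higher in liver, with no overlap of tissues in any of the 8 panels.

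The 4 genes of complex II, succinate dehydrogenase, went different ways. SDHA, the flavoprotein that oxidises succinate, was lower in liver, with lowest, median and highest levels of 10.39, 10.73 and 10.85 against 11.02, 11.31 and 11.71 in backfat. SDHB, the iron-sulfur subunit that receives the electrons, was higher in liver, at 11.74, 11.96 and 12.18 against 11.09, 11.26 and 11.51. Neither gene's tissues overlapped. The differences were -0.62 ± 0.11 (SE; limma adjusted p = 3.52e-04) for SDHA and 0.66 ± 0.09 (SE; adjusted p = 3.87e-05) for SDHB. Another SDHA probe set differed by -0.70, and another SDHB probe set by -0.29 without passing, which is opposite in sign to the SDHB probe set used. The membrane anchors SDHC and SDHD did not pass, at -0.11 (95% interval -0.49 to 0.27) and 0.24 (-0.08 to 0.55).

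Complex III was represented by UQCRB, its ubiquinone-binding protein, and UQCR10, a small subunit. Neither passed the tissue test. Their differences were -0.18 (95% interval -0.36 to -0.00) and 0.13 (-0.08 to 0.35).

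In complex IV, cytochrome c oxidase, 5 of the 7 subunits tested (71.4%) were lower in liver and none was higher, beside 43.6% of all probe sets lower. COX6A1, the non-muscle isoform of subunit 6A, had lowest, median and highest levels of 11.36, 11.57 and 11.68 in liver and 12.22, 12.43 and 12.84 in backfat. The lowest backfat array exceeded the highest liver array. The difference was -0.94 (95% interval -1.13 to -0.74), or 1.92-fold lower in liver (limma adjusted p = 1.50e-06). COX7C, COX5B (the zinc-binding subunit) and COX6C were lower, with differences of -0.66 ± 0.09, -0.59 ± 0.10 and -0.58 ± 0.11 (SE), each without overlap of the tissues. NDUFA4, named for complex I but a subunit of complex IV, was lower too, at -0.46 ± 0.10 (SE).

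The paralogs of subunit 7A were the complex IV genes that did not pass. COX7A1, the isoform known from heart, skeletal muscle and brown fat, had a median of 9.64 in liver and 9.53 in backfat. COX7A2, the isoform of liver and most other tissues, had medians of 10.68 and 10.66. Their differences were 0.13 (95% interval -0.05 to 0.31) and 0.09 (-0.16 to 0.35). COX7A1 passed, at 0.22, when arrays were shifted to a common median.

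Of the 14 genes of complex V, 7 (50%) were lower in liver, 1 (7.14%) was higher and 6 did not pass, beside 43.6% lower and 32.2% higher over all probe sets. In the catalytic head and central stalk, ATP5B, the catalytic beta subunit, had lowest, median and highest levels of 11.66, 11.96 and 12.24 in liver and 12.32, 12.66 and 12.91 in backfat, and differed by -0.71 ± 0.10 (SE; limma adjusted p = 5.79e-05). Its lowest backfat array was above its highest liver array. ATP5D, the delta subunit of the rotating central stalk, went from 8.12, 8.31 and 8.63 in liver to 8.99, 9.27 and 9.50 in backfat, also without overlap. That difference was -0.94 ± 0.09 (SE; adjusted p = 1.77e-06). The alpha subunit ATP5A1, the partner of ATP5B in the head, differed by -0.40 ± 0.14 with overlapping tissues. ATP5E, the epsilon subunit next to delta, differed by -0.01 (95% interval -0.17 to 0.15) and did not pass.

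The peripheral stalk of the ATP synthase, which holds the catalytic head still, was called for all 4 subunits, beside 75.7% of all probe sets called. ATP5J (coupling factor 6), ATP5H (subunit d) and ATP5O (the oligomycin sensitivity protein) were lower in liver, with differences of -0.73 ± 0.14, -0.71 ± 0.09 and -0.40 ± 0.10 (SE). ATP5F1, subunit b of the same stalk, was higher in liver by 0.26 ± 0.09 (SE; limma adjusted p = 0.0234), and lost that call in 5 of the 26 alternative settings.

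The paralogs ATP5G1, ATP5G2 and ATP5G3 encode the same mature c subunit of the proton-driven ring behind different import signals. ATP5G2 was lower in liver, at 9.78, 9.96 and 10.37 (lowest, median and highest) against 10.20, 10.53 and 10.69 in backfat, a difference of -0.44 ± 0.08 (SE; limma adjusted p = 2.28e-04). Its ranges overlapped through the female livers, whose levels were 9.94, 10.18, 10.32 and 10.37 against 9.78, 9.93, 9.93 and 9.97 in males. ATP5G1 and ATP5G3 differed by 0.05 (95% interval -0.27 to 0.36) and -0.16 (-0.46 to 0.14) and did not pass. ATP5G3 passed, at -0.32, after quantile normalization of the deposited values. The small membrane subunits ATP5I and ATP5L and the coupling factor B gene ATP5S did not pass either.

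Across the 62 genes, 19 (30.6%) had no overlap between the 8 liver and 8 backfat arrays, 16 of them lower and 3 higher in liver. Over all probe sets the share without overlap was 44.9% (26.7% lower and 18.3% higher in liver). The 3 genes separated upwards were NDUFC1, NDUFS1 and SDHB. Of the 22 genes that did not pass, all had 95% intervals within -0.49 to 0.55.

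Other mitochondrial genes included tissue differences beyond the range of the subunits. Of 16 genes of the TCA cycle and pyruvate dehydrogenase measured, 9 were lower and 6 higher in liver. The 9 included the pyruvate dehydrogenase subunits PDHA1, PDHB and DLAT, at -1.43, -0.58 and -1.32. For this and the mitochondrial lists that follow, the called shares over all probe sets were 43.6% lower and 32.2% higher. CS, citrate synthase, was at 9.81 ± 0.30 in liver and 12.78 ± 0.17 in backfat (SD, n = 8), a difference of -2.97 (limma adjusted p = 4.09e-10). SUCLA2, the ATP-forming subunit of succinyl-CoA ligase, differed by -2.80 and IDH3A, a subunit of NAD-dependent isocitrate dehydrogenase, by -2.05. The genes higher in liver were led by IDH2, the NADP-dependent mitochondrial isocitrate dehydrogenase (1.98), SUCLG2, the GTP-forming counterpart of SUCLA2 (1.57), and MDH2, mitochondrial malate dehydrogenase (1.02). The succinyl-CoA ligase genes thus differed in opposite directions, with SUCLG2 higher in liver and SUCLA2 higher in backfat.

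Regulators of mitochondrial gene expression were higher in liver for 5 of 6 measured, beside 32.2% of all probe sets, and the sixth did not pass. PPARGC1A, the coactivator PGC-1alpha that drives mitochondrial biogenesis and hepatic gluconeogenesis, ranged from 5.86 to 7.78 in liver and did not exceed 2.32 in backfat. Measured against the floor of 4, its liver mean was at least 8.25-fold higher. PPARGC1A is among the 5 but passed the filter through liver alone, so its p-value is not given. TFAM, which packages and transcribes mitochondrial DNA, was higher in liver by 0.77, and the mitochondrial deacetylase SIRT3 by 1.36. The remaining genes of the list were YY1 (0.35), TFB1M (0.34) and PPRC1 (-0.23), of which PPRC1 did not pass. The median difference over this list was 0.56, against -0.17 for the OXPHOS genes. That median includes PPARGC1A, whereas the OXPHOS genes tested were all above 4 in both tissues.

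Among carriers and uncoupling proteins, 8 of 11 tested were lower and 2 higher in liver, beside 43.6% and 32.2% of all probe sets. SLC25A4, an adenine nucleotide translocator that exports ATP, was higher by 2.0. Its paralogs SLC25A5 and SLC25A6 were lower in liver, at -0.57 and -1.04. The phosphate carrier SLC25A3 and the outer-membrane channel VDAC1 were lower, at -1.17 and -1.16. UCP3, an uncoupling protein known from muscle, was below 4 on every liver array and averaged 7.67 in backfat, at least 12.7-fold above the floor. UCP2 did not pass (-0.51, adjusted p = 0.115), although it did at -0.67 without the liver array of male 15 and at -0.76 without the backfat array of female 22. CKMT2, a mitochondrial creatine kinase, exceeded 4 on 5 liver arrays and was below 4 on all backfat arrays. The called counts of this list include UCP3 and CKMT2, each of which passed the filter through 1 tissue only.

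Of 9 assembly factors outside the set that were tested, 5 were higher and 2 lower in liver, beside 32.2% and 43.6% of all probe sets. FOXRED1, a complex I assembly factor, differed by 4.13, ACAD9, which acts in the same assembly pathway, by 1.21 and BCS1L, which inserts the iron-sulfur protein into complex III, by 0.50. OXA1L, the inner-membrane insertase, and TMEM126B were lower, at -1.08 and -0.37. Among 7 electron carrier and coenzyme Q genes, COQ6 (4.01), ETFA (1.30) and ETFB (0.34) were higher in liver and COQ9 (-0.71) and ETFDH (-0.55) lower. CYCS, cytochrome c itself, showed no difference that passed (0.04, adjusted p = 0.865). Of 18 import and chaperone genes, 10 were higher in liver, led by TIMM8A (2.92), PHB2 (1.33) and TIMM13 (1.13), and 4 were lower, led by TOMM22 (-0.71), TOMM70 (-0.71) and TIMM10 (-0.66).

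The restriction of feed was compared next, first in liver. Although no OXPHOS gene passed the test, 56 of the 62 (90.3%) were lower at the low than at the high feeding level. The median difference, low minus high, was -0.12, against -0.01 over all 12617 probe sets tested, of which 48.2% had a difference above 0. With limma, 0% of all probe sets were called for this comparison, while 11.5% had an unadjusted p below 0.05, and 4 of the 62 OXPHOS genes did. The count of lower genes was between 49 and 56 when each array was left out in turn. By quantile normalization it was 48, with a median of -0.08. Complex I held 31 of 32 subunits below 0 (median -0.12), complex V 12 of 14 (median -0.14) and complex IV 6 of 7 with a median of only -0.05.

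NDUFAF1, an assembly factor of the complex I membrane arm, had the lowest p in this comparison. Its levels were 5.82, 5.90, 5.95 and 6.40 on the 4 high-level livers and 5.12, 5.43, 5.55 and 5.56 on the 4 low-level livers. The groups did not overlap. The difference was -0.60 (95% interval -1.0 to -0.21; limma adjusted p = 0.326). SDHC, a membrane anchor of complex II, was at 9.82, 9.87, 10.17 and 10.35 on the high level and 9.43, 9.61, 9.82 and 10.002 on the low level. Those values overlapped, and their difference was -0.34 (adjusted p = 0.386). NDUFB8, a membrane-arm subunit often used as a protein marker of complex I, was at 10.37, 10.39, 10.49 and 10.59 against 9.97, 10.12, 10.24 and 10.26, without overlap, and NDUFB4 differed by -0.30 (adjusted p = 0.424). ATP5B and NDUFB11 were the other genes of the 4 (6.45%) without overlap, all lower at the low level, beside 5.9% of all probe sets without overlap in either direction and 3.11% in that one.

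The same values can be summarised as the level of the whole set on each array, which restates the count above array by array. Relative to the mean of each gene over the 8 livers, the median of the 62 genes was 0.04, 0.18, 0.06 and 0.09 on the high-level livers (males 14 and 17, females 19 and 20). On the low-level livers it was -0.12, -0.06, -0.07 and -0.00 (males 15 and 16, females 18 and 21). All 4 restricted livers were below all 4 high-level livers. Within the males 56 of 62 genes lay below 0 (median -0.16), and within the females 46 (median -0.09). The array's own control for RNA integrity moved with feeding too. The difference between the 3' and 5' probe sets of GAPDH was 2.20 to 2.85 on the low-level livers and 1.77 to 2.04 on the high-level livers. For actin (3.53 to 3.91 against 3.26 to 4.13) and EF1A (0.95 to 1.26 against 0.85 to 1.35) the feeding groups overlapped. The part of these RNA controls in the result was not tested. The hepatocyte markers did not separate the feeding levels, at a mean of 14.13 to 14.22 on the low and 14.02 to 14.24 on the high level.

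**Figure D3:**
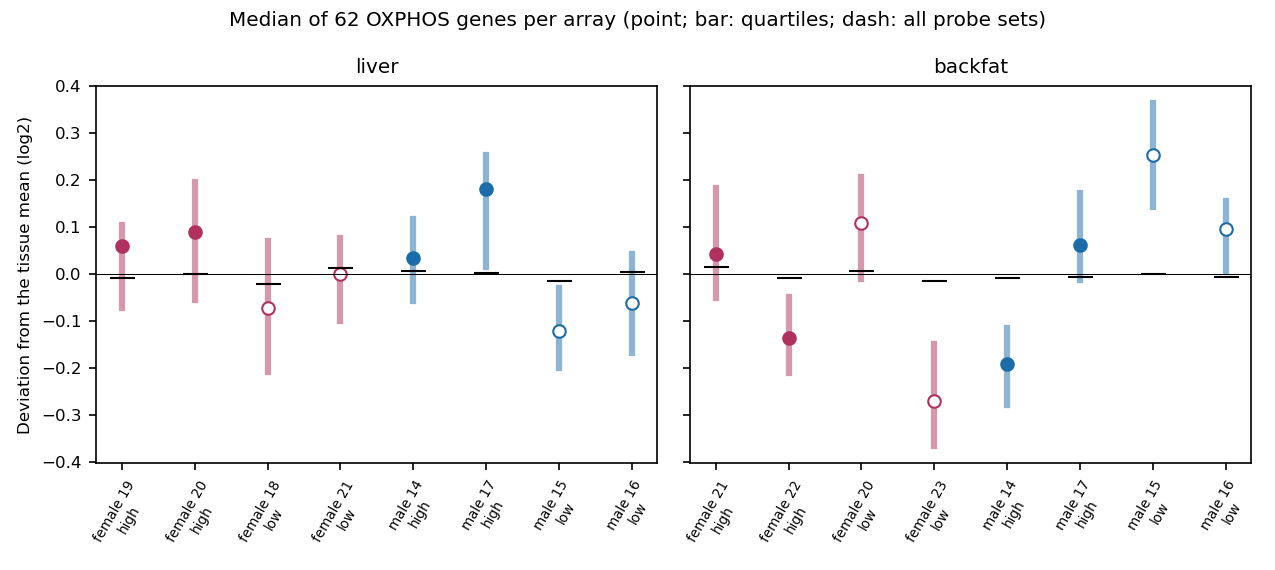
Median deviation of the 62 OXPHOS genes from their tissue mean on each array (points, log2; open for the low feeding level; coloured bars, quartiles over genes), with the median over all probe sets as a dash. The 4 restricted livers lie at or below 0 and the 4 high-level livers above it, while backfat runs from -0.27 in female 23 to 0.25 in male 15.

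In backfat no OXPHOS gene passed for feeding, and 1 had an unadjusted p below 0.05. Of the 62 genes 44 (71%) were higher at the low feeding level, with a median of 0.09 against 0.01 over 12686 probe sets. With limma 0% of all probe sets were called, 11.1% had an unadjusted p below 0.05, and 51.1% had a difference above 0. All 14 genes of complex V were above 0 (median 0.14), as were 21 of the 32 complex I subunits, but 4 of 7 in complex IV. ATP5G2, the c-ring paralog described above, had the lowest p and was the only gene without overlap (1.61% of the 62, beside 6.61% of all probe sets, 3.25% in the same direction). It was at 10.56, 10.63, 10.68 and 10.69 on the low level and 10.20, 10.29, 10.39 and 10.50 on the high level, a difference of 0.29 (95% interval 0.03 to 0.56; adjusted p = 0.412). COX5B, NDUFB1 and NDUFS7 followed, at 0.33, 0.29 and 0.46 (adjusted p from 0.481 to 0.524). The count of higher genes was not stable to single arrays: it was 30 of 62 with a median of -0.00 without female 20, and 56 without female 21 or without female 23.

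The backfat count was then split by sex. Within the males 61 of 62 genes lay above 0 (median low minus high 0.23), and within the females 24 of 62 (median -0.04). Over all probe sets the corresponding shares were 51.5% and 49.3%. The medians relative to the tissue mean were 0.25 and 0.10 on the low-level males 15 and 16, and -0.19 and 0.06 on the high-level males 14 and 17. Among females they were 0.11 and -0.27 on the low level (20 and 23) and 0.04 and -0.13 on the high level (21 and 22), so that the feeding levels overlapped. On male 15 the number of genes above the tissue mean was 58 of 62, and on female 23 it was 4, both on restricted feeding. The GAPDH 3' to 5' difference was 1.73 on male 15 and 2.36 on female 23, the highest of the 8 backfat arrays, followed by 2.12 on male 14. Hepatocyte markers averaged 6.83 on male 15 and 6.66 on female 20, above the 3.35 to 5.38 of the other 6 backfat arrays. Neither measure's part in the spread was tested. Within pairs of equally treated pigs the SD of an OXPHOS gene had a median of 0.21 in backfat and 0.14 in liver, against 0.26 and 0.25 over all probe sets.

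The dependence of the feeding difference on sex was tested in each tissue by an interaction. No gene passed with limma, in a setting where 0% of all probe sets were called in either tissue. An unadjusted p below 0.05 was found for 5.43% of all probe sets and none of the 62 genes in liver, and for 5.27% of all probe sets and 2 of the 62 genes in backfat. In backfat 55 of the 62 interaction values (low minus high in females, less the same in males) were below 0, with a median of -0.26. The lowest p values were those of NDUFB2 (-0.92, 95% interval -1.69 to -0.16), ATP5G1 (-1.03), ATP5D (-0.49) and NDUFS6 (-1.67), all with a limma adjusted p of 0.893. Without the backfat array of female 21 the NDUFS6 value was -0.66. In liver 40 of 62 values were above 0 (median 0.10). NDUFV3, NDUFA7, NDUFA1 and NDUFA13 led there, at 0.69, 0.60, -0.40 and 0.37 (adjusted p from 0.905 to 0.908).

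Whether feeding acted differently on the tissues was tested over all 16 arrays. No OXPHOS gene passed, and 0.0215% of all probe sets did. An unadjusted p below 0.05 was found for 4 of the 62 genes and 8.77% of all probe sets. The difference (low minus high in liver, less the same in backfat) was below 0 for 54 of 62 genes, with a median of -0.20, while 48% of all probe sets were above 0. ATP5I, a small membrane subunit of the ATP synthase, had the lowest p, with -0.53 (95% interval -1.0 to -0.06; limma adjusted p = 0.511). ATP5B, NDUFB4 and COX5B followed at -0.50, -0.39 and -0.43, with adjusted p up to 0.566. Leaving out each array in turn gave 47 to 61 genes below 0. The sexes were unlike in this respect. In males the median low minus high was -0.16 in liver and 0.23 in backfat, while in females it was below 0 in both tissues (-0.09 and -0.04).

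**Figure D4:**
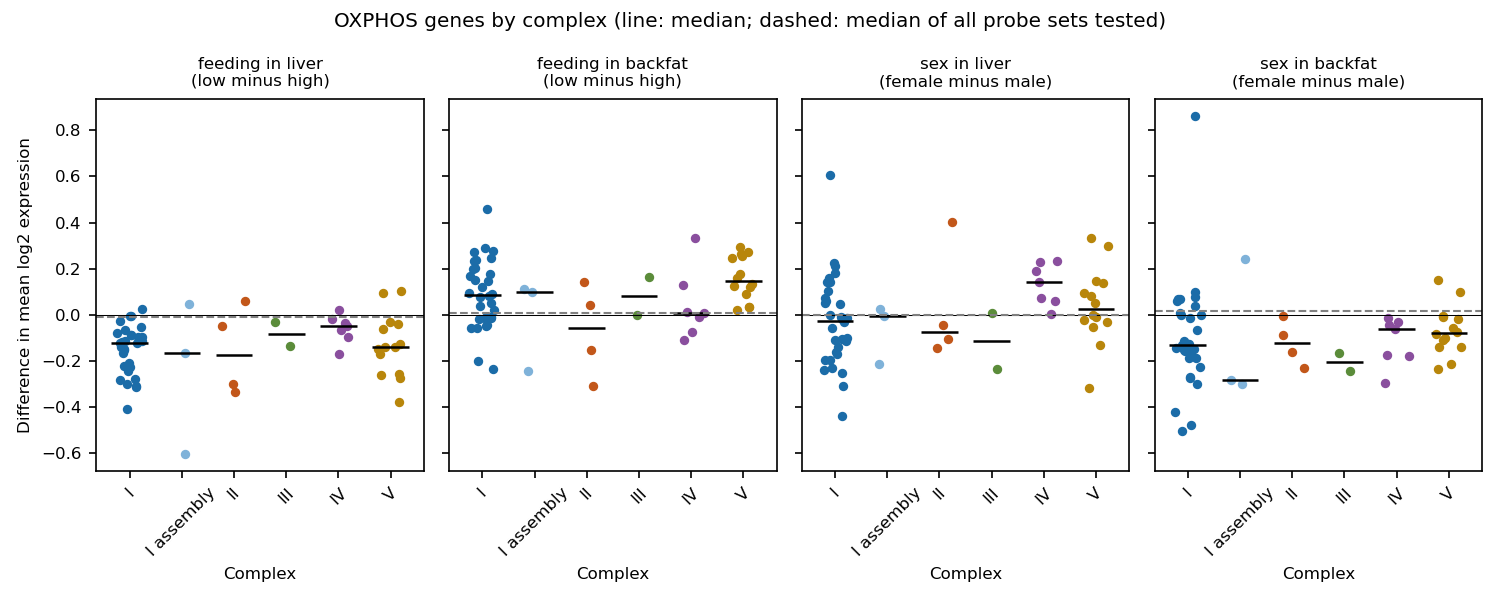
Difference in mean log2 expression (vertical axis) of each OXPHOS gene for feeding (low minus high) and sex (female minus male) in each tissue, by complex; lines are medians and the dashed line is the median of all probe sets tested. Complex I lies below 0 for feeding in liver (31 of 32 genes) and complex V above 0 for feeding in backfat (14 of 14); no gene passed an adjusted p of 0.05.

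In liver the median sex difference, female minus male, was -0.00, with 29 genes higher and 33 lower in females, beside 50.1% of all probe sets higher. No gene passed at an adjusted p below 0.05, although 4.53% of all probe sets did. At an unadjusted p below 0.05 there were 6 of 62 genes, against 19.2% of all probe sets. NDUFS7 came closest. Its levels were 7.68, 7.72, 7.93 and 7.98 in female livers and 7.03, 7.13, 7.35 and 7.38 in male livers, with no overlap. Females were higher by 0.61 (95% interval 0.30 to 0.91; limma adjusted p = 0.051). In 5 of the alternative settings, among them quantile normalization, its adjusted p was below 0.05. NDUFC2 lay the other way, at 10.58, 10.59, 10.60 and 10.73 in females and 10.98, 11.02, 11.11 and 11.15 in males, again without overlap, a difference of -0.44 (95% interval -0.70 to -0.18; adjusted p = 0.0796). It was below 0.05 in 4 settings. SDHC and ATP5J followed at 0.40 and -0.32 (adjusted p = 0.133 and 0.194). All 7 complex IV genes were above 0, by up to 0.23, with COX7A1 and COX7A2 among the 7 genes (11.3%, beside 11.8% of all probe sets) whose sexes did not overlap. Of those 7, 3 were higher (5.59% of all probe sets) and 4 lower (6.24%) in females. The skeletal muscle marker list averaged 3.18 to 3.37 in female and 2.83 to 2.96 in male livers. CA3, a carbonic anhydrase of that list that is also abundant in fat, was at 8.04 to 10.44 in female and 3.23 to 4.57 in male livers. Their part in these values was not tested.

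In backfat no OXPHOS gene passed for sex, where 0.11% of all probe sets did. An unadjusted p below 0.05 was found for 3 of the 62 genes and 6.04% of all probe sets. Of the 62 genes 51 (82.3%) were lower in females, with a median of -0.13 against 0.01 over all probe sets, of which 52.7% were higher. That count rested on the backfat array of female 23. Without it 29 genes were lower and the median was 0.02. NDUFA10, an accessory subunit of complex I, was at 8.56, 8.62, 8.68 and 8.86 in females and 8.98, 9.04, 9.29 and 9.42 in males, the only gene without overlap (1.61%, beside 3.54% of all probe sets, 1.46% in the same direction), and differed by -0.50 (95% interval -0.80 to -0.20; limma adjusted p = 0.609). NDUFV1, NDUFA7 and NDUFAF2 differed by -0.48, -0.42 and -0.30, all with an adjusted p of 0.822. The highest value above 0 was that of NDUFS6 (0.86, 95% interval -0.25 to 1.97), which was 0.36 without female 21.

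The difference between tissues in the effect of sex was called for none of the OXPHOS genes and for 2.21% of all probe sets. At an unadjusted p below 0.05 there were 5 of the 62 genes and 13.5% of all probe sets. Of the 62 values (female minus male in liver, less the same in backfat), 45 were above 0, with a median of 0.14. ATP5G2 had the lowest p, at 0.44 (95% interval 0.11 to 0.77; limma adjusted p = 0.2), and 3 of its 4 female livers were above all 4 male livers. NDUFC2, NDUFA10 and NDUFS7 followed at -0.44, 0.45 and 0.73 (adjusted p from 0.217 to 0.285). NDUFS6 was at -1.10 (adjusted p = 0.393) over all arrays and at -0.59 (adjusted p = 0.515) without the backfat array of female 21. It passed, at -1.60 (adjusted p = 0.0336), without the backfat array of female 22, a fit in which female 21, the array high in this gene, was the only high-level female backfat.

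Of the other mitochondrial lists, none of the 16 TCA cycle and pyruvate dehydrogenase genes passed for sex or feeding within a tissue. The same held for the carriers, assembly factors, electron carriers and regulators. Among 18 import and chaperone genes TIMM8A and PHB2 passed for sex in liver, both lower in females. TIMM8A, an intermembrane-space chaperone, differed by -2.13, and PHB2, the inner-membrane scaffold prohibitin 2, by -0.98. In the feeding comparison in liver 10 of the 16 TCA cycle and pyruvate dehydrogenase genes were below 0, with a median of -0.08. Of the 18 import genes 12 were below 0, with a median of -0.10, beside -0.12 for the OXPHOS genes.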

How the data were processed

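RNA of 16 samples was hybridised to porcine Affymetrix arrays. The values are log2 expression levels deposited by the authors, made with GCRMA per the submitters' processing notes (no version or setting is given in the sources used here). This method models background from each probe's base composition and equalises the distributions of the arrays, so levels are relative and those of unexpressed genes share a floor. The number of arrays limits the precision. Names came from the annotation of the array platform. All 63 symbols matched RefSeq by Entrez number; they include older ATP5 names.

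limma 3.58.1 (R 4.3.3) was fitted per contrast over all non-control probe sets above 4 on at least 2 arrays of the fit, with Benjamini-Hochberg adjustment over all of them. The 8 arrays of a tissue were used for sex, feeding and their interaction, and all 16 for contrasts between tissues. These held 13962 probe sets over both tissues, 12617 in liver and 12686 in backfat. The pairing check used males, whose animal numbers link the tissues: residuals of the same male correlated by 0.05 to 0.09 across probe sets. With 2 arrays a group the residuals of a group mirror each other. Males 14 and 17 therefore share the value 0.09, and males 15 and 16 the value 0.05, so the check cannot show that pairing has no effect.

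Genes were named by rule: the 10 largest called differences in each direction and paralogs for tissue, the 4 lowest p values in the other contrasts, up to 3 called genes in each direction per mitochondrial list, and PPARGC1A, TFAM, CYCS, CS, UCP2 and SLC25A4. Other called genes were added after their values were seen. The genes and lists were chosen with earlier results of these data known. Sequences, genome positions and batches were not analysed here.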

Additional observations from a re-analysis of the deposited data

Results flagged for a closer look

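Among 126 sets of 8 arrays (62 genes and the median of the set, in each tissue), 6 held 1 array set apart from the other 7 by a gap that was large for the range of the 8 (Dixon's criterion, which chance meets in about 1 of 20 sets). In liver these were COX7A1 at 9.97 in female 19 (others 9.57 to 9.74), NDUFS1 at 8.71 in female 18 (others 9.05 to 9.18) and SDHA at 10.39 in female 20 (others 10.69 to 10.85). In backfat, NDUFAF1 was at 6.10 in female 21 (others 4.96 to 5.47) and NDUFS6 at 7.23 on the same array (others 4.43 to 5.66), which also had the low hybridisation controls. NDUFV3 was at 5.43 in the backfat of female 20 (others 4.96 to 5.09).

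In the males the median difference of the 62 genes between feeding levels (low minus high) was -0.16 in liver and 0.23 in backfat, with both restricted males on the same side of both high-level males in each tissue. No gene passed for feeding in either tissue. This difference between tissues was not tested in males alone, with 2 arrays a group.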

How the results depend on the processing

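The count of OXPHOS genes called between tissues stayed within 1.5 times of 40 under every alternative run, at 33 to 38 when each array was left out and 30 to 43 otherwise, and 26 of the 40 kept their call in all 26 alternatives. With the animal as a random replicate block the same 40 genes were called (correlation 0.03). The males alone with a fixed replicate block gave 30, all among the 40, on 8 arrays. No other call changed with the random replicate block. For sex in liver the count of 0 became 1 with no filter (NDUFC2), with a filter at 6, after quantile normalization and with values under 4 set to 4 (NDUFS7 in these 3), 1 with all 16 arrays in 1 fit (NDUFC2), and 2 with an intensity trend and when probe sets were averaged per gene (both genes). The count for tissue by sex became 1 with no filter (ATP5G2) and was 0 to 1 when arrays were left out. The number of genes lower in female backfat was 29 to 55 when arrays were left out, against 51. The called counts for feeding and its interactions stayed at 0. Reversed values were NDUFS3 for tissue (-0.65) and NDUFA1 for sex by feeding in liver (0.86) with probe sets averaged per gene, and COX7A2 for tissue in the males alone (-0.0386). ATP5G1 ranged from -0.0281 to 0.12 and CYCS from -0.10 to 0.18 with arrays left out. The cause of these changes was not tested. With 2 arrays a group the intervals were wide beside the differences seen for feeding.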

Other observations

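Several OXPHOS genes were covered by more than 1 probe set, and these did not always give the same tissue difference. Of 17 further probe sets of 14 genes, 12 were above the floor, and 9 of the 12 had the sign of the probe set used. Among the 12, 8 belonged to genes called between tissues. Of these 8, 3 were called in the same direction and 1 in the opposite direction. The COX7C probe sets differed by -0.66 and -2.29, both called lower in liver, and those of NDUFV2 by 0.42 and 0.85, both called higher. ATP5L, which did not pass at -0.08, had another probe set at -1.27 that did. NDUFB3 passed on its other probe set (0.33) and not on the one used (0.17).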
